A study of Mus musculus with 24 samples.

Results

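The Dlk1-Dio3 region is an imprinted stretch of mouse chromosome 12 that holds one of the densest groups of miRNA genes in the genome. A list of 46 mature miRNAs of this region was described here in serum extracellular vesicles (EVs) of mice after tibia surgery. The members were chosen by name, with earlier results of these data known. The table lists 1966 mature miRNAs, of which 667 had at least 1 count in the 24 libraries, and 43 of the 46 members were among them.

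In the imprinted region the protein-coding genes Dlk1, Rtl1 and Dio3 are expressed from the paternal chromosome. The long non-coding RNAs Meg3, Rian and Mirg and the miRNAs are expressed from the maternal chromosome, largely as a long shared transcript unit. The miRNAs are known for high expression in the embryo, the placenta and the brain, and a group of them that lies antisense to Rtl1 can direct cleavage of the Rtl1 transcript.

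Circulating EVs were profiled by small RNA sequencing, with 1 library per mouse, to ask how their miRNA content differs at set times after surgery. All mice were wild type C57BL/6 males aged 14 to 16 weeks. The 6 Control mice had no surgery and received saline. The S6h, S24h and S72h groups, 6 mice each, had an open tibia fracture stabilized with a pin under isoflurane and buprenorphine, and blood was taken 6, 24 or 72 h later. Mice of the S24h and S72h groups also received analgesia daily, so surgery, anesthesia and analgesia cannot be told apart. The Control mice were the controls assigned to the S6h mice, from the same batch of animals. The controls kept for the later times were not analysed here. Time after surgery and animal batch therefore cannot be told apart in comparisons of S24h or S72h with Control. The paper reports that its early and late control groups did not differ statistically. Operated mice were divided at random among the time points, and whether S6h shared a batch with S24h and S72h is not stated. A part of batch in comparisons of S24h or S72h with S6h was not tested.

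Control libraries held 63956 to 263211 counts in total (median 117578) and S6h libraries 102568 to 471801 (median 177468). S24h libraries were shallower, with 66652 to 143856 counts (median 75030), and S72h libraries held 65017 to 245013 (median 94427.5). Levels are given as CPM, the counts of a miRNA scaled to a common library total, which are shares of the miRNA pool and not amounts in serum. A lower share can come from fewer EVs that carry a miRNA, from less of it per EV or from more of other miRNAs, and these cannot be told apart. Where a miRNA had no count, its true level could still reach 3 counts, or 6.36 CPM in the deepest library and 46.9 CPM in the shallowest. This limit covers counting error only, since reads after PCR are not independent molecules and no collapsing of copies is described.

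The 46 members together took 8001 of 3359369 counts. Their summed level ranged from 2111 to 5851 CPM in the Control libraries (median 2789), and the mean was 3229.7 ± 1333 CPM (SD, n = 6), or 0.323% of all counts. At 6 h the sum ranged from 2181 to 4380.5 CPM (median 2809.5, mean 2971 ± 737, SD, n = 6). Control and S6h overlapped throughout. At 24 h it ranged from 695 to 2954 CPM (median 1005, mean 1345 ± 879, SD, n = 6), and at 72 h from 391 to 1710.1 CPM (median 1062, mean 1089 ± 503, SD, n = 6). Every S72h library lay below every Control and every S6h library, and 5 of the 6 S24h libraries did so, the exception being S24h replicate 2. With TMM-scaled library sizes S72h replicate 1, at 2119 CPM, was above the lowest Control library, at 1955 CPM. The groups also overlapped without mmu-miR-434-3p, the member with the most counts, where the means were 2294, 1831, 971 and 883 CPM from Control to S72h, and 4 of 6 libraries of S24h and of S72h lay below the lowest Control and S6h libraries. No test was made of the sum.

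Fewer members had a count in the late libraries. Their number ranged from 10 to 22 in the Control libraries (median 16.5), from 10 to 30 at 6 h (median 19.5), from 3 to 13 at 24 h (median 9) and from 5 to 22 at 72 h (median 13), and all of these ranges overlapped. Depth bears on detection, so the number expected at the smallest library total was computed for each library, and its medians were 15.5, 18.4, 8.86 and 12.3 in the same order of groups. Over the whole table, the median number of miRNAs with a count was 272 in Control, 292 at 6 h, 239 at 24 h and 277.5 at 72 h. The medians expected at the smallest library total were 259.6, 274.0, 237.5 and 268.4 in the same order.

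**Figure D1:**
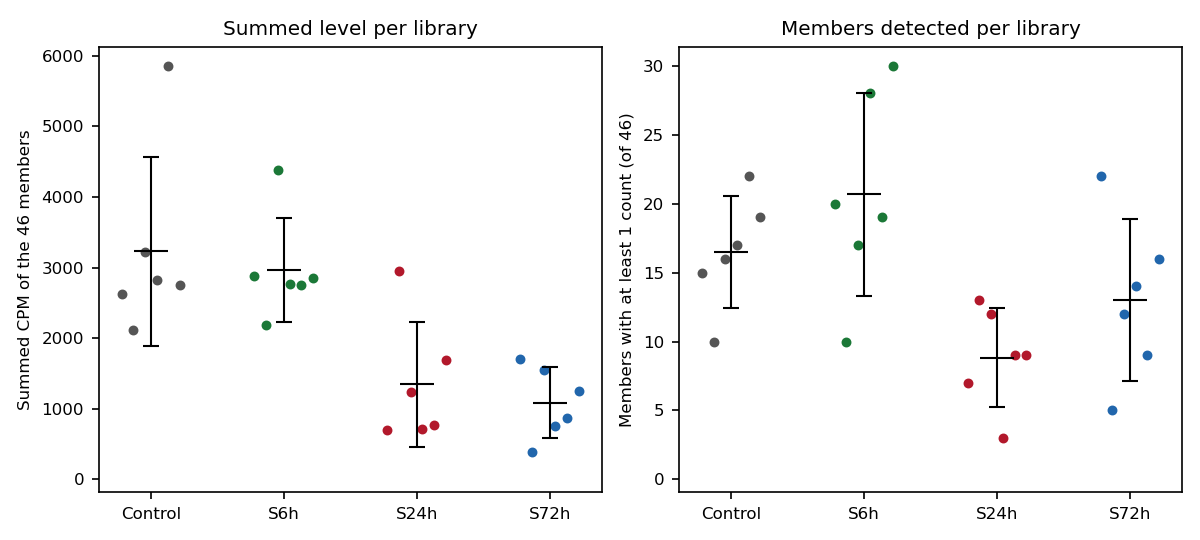
Summed CPM of the 46 members (left) and number of members with at least 1 count (right) in each of 24 libraries, with points for libraries, lines for group means and bars of 1 SD, not drawn below 0. The S72h sums, from 391 to 1710.1 CPM, all lie below the lowest Control library at 2111 CPM.

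No member had a count in all 24 libraries. Of the 46, 13 had a count in 12 or more libraries, 26 in 2 to 11 libraries and 4 in 1 library. The remaining 3, mmu-miR-337-3p, mmu-miR-411-3p and mmu-miR-539-5p, had no count. Of 42 members with a count in Control or S6h libraries, 13 had none at 24 or 72 h, which is 31%, and the same held for 129 of 567 miRNAs of the whole table, or 22.8%. The Control and S6h libraries held 2096041 counts together and the S24h and S72h libraries 1263328. The part of depth in these shares was not tested.

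Testing was limited to miRNAs that reached 10 CPM in 12 or more libraries. This left 252 miRNAs, and 12 of the 46 members. The filter favors members that were high in some groups, so counts over these 12 describe the tested members and not the whole cluster. Calls needed a 1.5-fold difference or more together with a p under 0.05 in edgeR's quasi-likelihood test, after Benjamini-Hochberg adjustment over all 252.

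Between S6h and Control no member was called, and none of the 252 tested miRNAs was (0% called). In that comparison 9 miRNAs, none of them a member, had an unadjusted p under 0.05 in edgeR, and DESeq2 also called 0. Between S24h and Control 1 of the 12 tested members was called, mmu-miR-541-5p, beside 11.9% of all tested miRNAs. At 72 h no member was called against Control by edgeR, beside 3.57% of all tested, and 3 members had an unadjusted p under 0.05. DESeq2 gave an adjusted p there for 125 of the 252 miRNAs and for 2 of the 12 members, and called mmu-miR-434-3p, beside 16.8% of the 125, or 8.33% of all 252. For S24h against S6h 2 members were called, both lower, mmu-miR-541-5p and mmu-miR-434-3p, where 20.2% of all tested miRNAs were called. From S24h to S72h mmu-miR-541-5p was called higher, and edgeR called no other miRNA (0.397% of all tested), while DESeq2 called 4. With 12 tested members, counts of 0 to 2 are too few to read against these shares as a result about the cluster.

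The split of calls into lower and higher moved with the scaling. Between S24h and Control 20 miRNAs were called lower and 10 higher with TMM scaling, against 19 and 18 with RLE, 18 and 18 with TMMwsp and 20 and 17 with library totals alone. At 72 h the split was 4 and 5 with TMM, 2 and 15 with TMMwsp, and 2 and 0 with library totals alone and with TMM factors computed without erythroid miRNAs. For S24h against S6h it was 35 and 16 with TMM, 21 and 22 with RLE and 18 and 19 with library totals alone. The number called at 72 h was also unsteady, from 1 to 14 when 1 library was left out.

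Over the 12 tested members the fitted log2 values against Control had a median of −1.83 at 24 h, beside −0.21 over all tested miRNAs, and of −1.44 at 72 h, beside −0.06. The median from S6h to S24h was −1.11, beside −0.23, and from S24h to S72h −0.19, beside 0.09. These medians are the same with mmu-miR-541-5p, which was at 0 in all S24h libraries, set to its lower bound. All 12 values were negative at 24 h (11 of 12 with library totals alone, 8 of 9 with edgeR's own filter) and at 72 h, where 57.9% and 52% of all tested miRNAs were. At 6 h the median was −0.29 with 8 of 12 negative, beside −0.02. The comparisons with Control share the same 6 Control libraries. The 12 include both arms of miR-434, miR-382 and miR-127, so their values are not independent. Some passed the filter mostly through Control and S6h, which can tilt the late values downward. mmu-miR-543-3p, for example, had a count in 5 Control, 5 S6h, 1 S24h and 3 S72h libraries. The signs and medians are therefore a description and no test. RLE scaling moved the median over all tested miRNAs at 24 h from −0.21 to −0.06 and that of the members to −1.63, and from S6h to S24h from −0.23 to 0.06 and the members to −0.83. From S24h to S72h the median of the members was −0.38 with RLE, beside −0.05 over all tested miRNAs. With library totals alone it was −0.43, beside −0.12. edgeR's own filter left 9 members, with medians of −1.28 at 24 h, −0.92 at 72 h and −0.82 from S6h to S24h.

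The members fall into 5 stretches along the chromosome. Positions are those of RefSeq mature miRNAs on GRCm38.p6, which were found for 43 of the 46 members. The RefSeq position table holds no entry for mmu-miR-487b-3p, mmu-miR-376c-3p and mmu-miR-485-5p. All 43 lie on the plus strand of chromosome 12 between 109572004 and 109743784, a span of 171781 bases between Meg3 and the end of Mirg. The 8 members on the strand opposite to Rtl1 held 52.8% of the counts of the 43, the 13 within Mirg 31.1% and the 16 between Rian and Mirg 14.5%. The 4 members between Meg3 and Rtl1 held 0.889% and the 2 within Rian 0.698%.

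**Figure D2:**
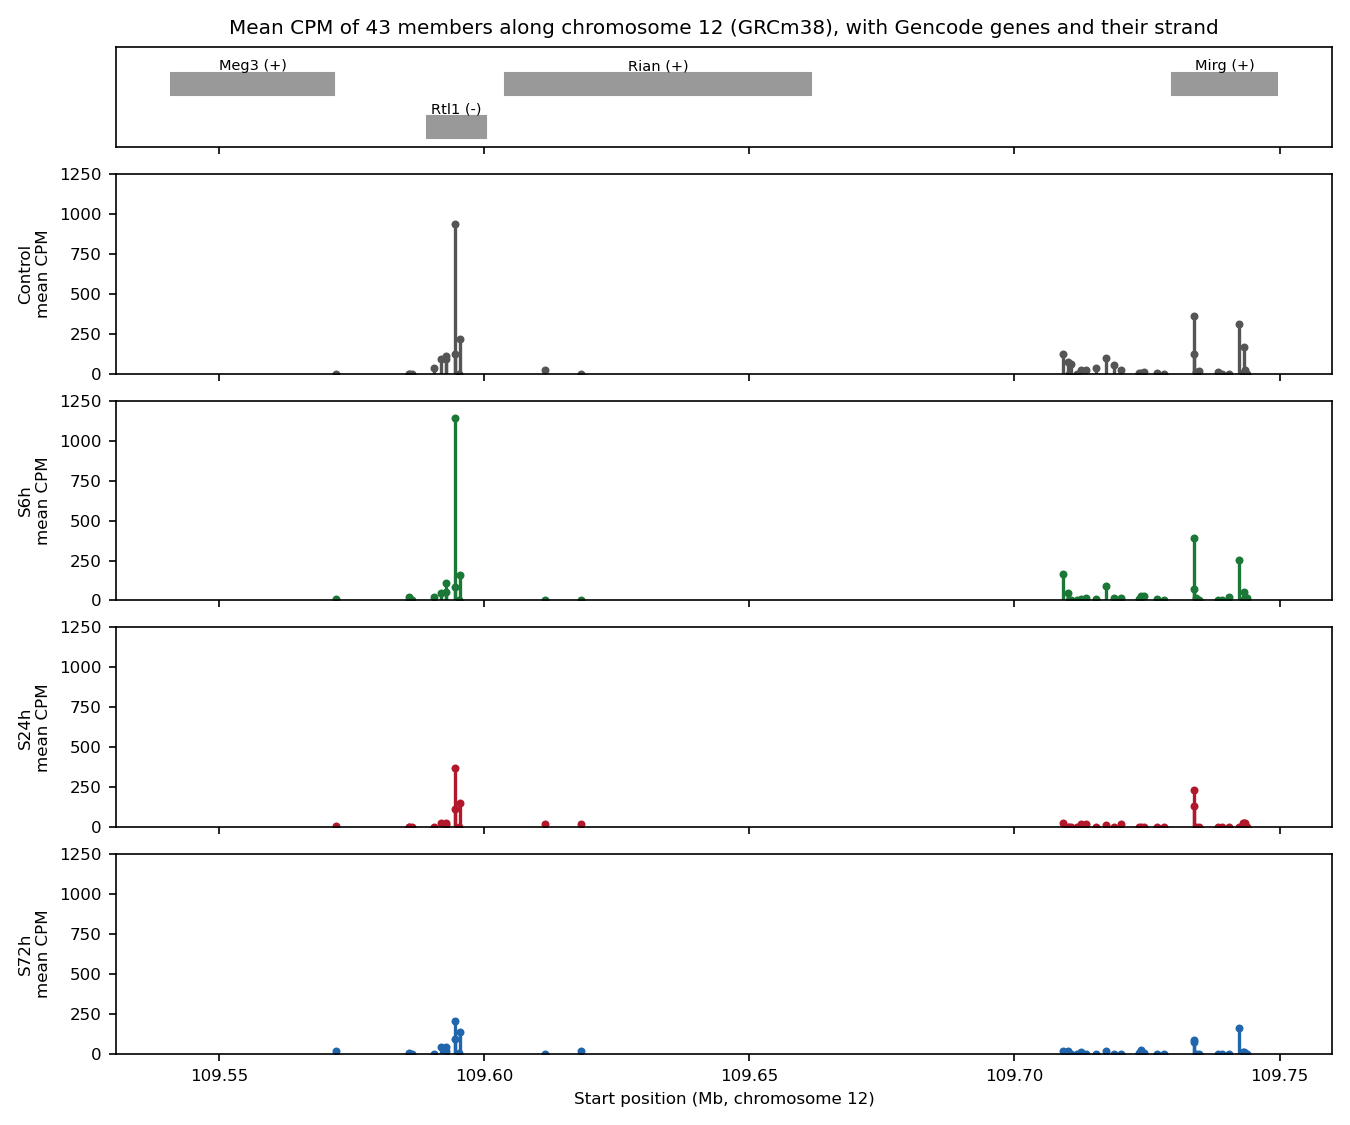
Mean CPM of each of 43 members (vertical axes, n = 6 libraries per group) at its start on chromosome 12 of GRCm38 (horizontal axis, Mb), with 4 Gencode genes drawn above and their strand in brackets. The tallest line in Control, S6h, S24h and S72h is mmu-miR-434-3p opposite to Rtl1, with mean CPM of 935, 1139.9, 373 and 206.

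Before Rtl1 and within Rian the counts were sparse. The 4 members between Meg3 and Rtl1, mmu-miR-673-5p, mmu-miR-337-5p, mmu-miR-337-3p and mmu-miR-665-3p, had 0 counts in Control, 43 at 6 h, 7 at 24 h and 20 at 72 h. Within Rian, mmu-miR-341-3p and mmu-miR-370-3p had 13, 3, 27 and 12 counts in the same order of groups. No difference can be read from counts this low.

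Opposite to Rtl1, a retrotransposon-derived gene needed for placental development, the summed level of the 8 members ranged from 1006 to 2872 CPM in Control (median 1301) and from 1277 to 2477 CPM at 6 h (median 1465). At 24 h it ranged from 81.3 to 1897 CPM (median 546) and at 72 h from 183 to 833 CPM (median 587). All S72h libraries lay below the lowest Control library, and 5 of 6 S24h libraries did so, with replicate 2 the exception. Without mmu-miR-434-3p, 4 of 6 S72h and 3 of 6 S24h libraries lay below the lowest Control library. Below the lowest S6h library lay then 2 of 6 S72h and 3 of 6 S24h libraries.

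mmu-miR-434-3p was the most abundant member, with 2588 counts in 22 libraries, 32.3% of all counts of the members, and rank 89 of 1966 by mean CPM. It ranged from 409.7 to 1351 CPM in Control (median 936, mean 935 ± 344, SD, n = 6) and from 799 to 1606 CPM at 6 h (median 1113, mean 1139.9 ± 273). At 24 h the level ranged from 0 to 1098 CPM (median 277, mean 373 ± 383) and at 72 h from 0 to 363 CPM (median 237, mean 206 ± 143). Every S72h library lay below every Control library, which held for 1.19% of all tested miRNAs and for no other tested member, while at 24 h replicate 2 alone reached the S6h range. From S6h to S24h it fell by 1.85 on the log2 scale (SE 0.62, edgeR quasi-likelihood, Benjamini-Hochberg adjusted p = 0.0362), with 5 of 6 S24h libraries below every S6h library. The log2 differences from Control were −1.49 at 24 h (SE 0.62, edgeR adjusted p = 0.0971) and −2.06 at 72 h (SE 0.63, edgeR adjusted p = 0.0524), neither called, and DESeq2 gave −2.11 at 72 h with an adjusted p of 0.00826.

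The call from S6h to S24h was lost with RLE scaling and with library totals alone. Over the alternatives its adjusted p ranged from 0.018 to 0.0764. It was also lost when any of 8 libraries was left out, where the log2 fold change stayed between −1.88 and −1.70. Over all 24 cases it was between −2.53, without S24h replicate 2, and −1.59, and over the alternatives between −2.01 and −1.60. Without S6h replicates 1, 3, 4 and 6 the edgeR adjusted p was 0.0515, 0.0579, 0.0671 and 0.0586, and without S24h replicates 1, 3, 4 and 6 it was 0.0728, 0.0721, 0.0672 and 0.0569. With the filter on low counts recomputed each time, it was lost in 17 of 24 cases, where the log2 fold change was between −1.81 and −1.49. At 72 h the alternatives gave adjusted p from 0.00826 to 0.0941, and a call was made with DESeq2, without a filter and with edgeR's own filter. A call against Control at 72 h also appeared when S24h replicate 2, S24h replicate 5 or S72h replicate 1 was left out (edgeR adjusted p = 0.048, 0.0354 and 0.0486), and 1 at 24 h when S24h replicate 2 was (log2 fold change −2.16, edgeR adjusted p = 0.0165).

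The other arm of this hairpin, mmu-miR-434-5p, ranged from 0 to 238 CPM in Control (median 141), from 25.9 to 146 CPM at 6 h (median 82.9), from 0 to 325 CPM at 24 h (median 64.4) and from 15.4 to 218 CPM at 72 h (median 84.0). Its groups overlapped, and it differed from Control by −0.36 (log2) at 24 h (SE 1.02) and −0.45 at 72 h (SE 1.02), with edgeR adjusted p of 0.859 and 0.885. The value at 24 h was −1.03 without S24h replicate 2 and turned to 0.01 without Control replicate 4, and that from S6h to S24h, 0.15, to −0.53 without S24h replicate 2. The 3p arm held 89.1% of the counts of the hairpin in Control, 93.3% at 6 h, 76.1% at 24 h and 72.6% at 72 h. The difference between the arms was not tested.

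mmu-miR-136-3p comes from a hairpin that matches the Rtl1 transcript perfectly. The level ranged from 7.45 to 491 CPM in Control (median 212), from 102 to 233 CPM at 6 h (median 154), from 0 to 325 CPM at 24 h (median 129) and from 97.2 to 199.9 CPM at 72 h (median 122). The groups overlapped, with log2 fold changes of −0.66 at 24 h (SE 0.77, edgeR adjusted p = 0.631) and −0.41 at 72 h (SE 0.77, edgeR adjusted p = 0.85). Its 5p arm, mmu-miR-136-5p, had 17 counts in all, 11 of them in S6h replicate 4 and 6 in S72h replicates 1 and 3.

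The hairpin of miR-127, also antisense to Rtl1, was counted on both arms at similar depth, 196 counts for mmu-miR-127-5p and 260 for mmu-miR-127-3p. mmu-miR-127-3p ranged from 0 to 299 CPM in Control (median 78.0), from 19.5 to 270.0 CPM at 6 h (median 96.0), from 0 to 81.3 CPM at 24 h (median 0) and from 0 to 89.7 CPM at 72 h (median 43.4). At 24 h it was seen in 2 of 6 libraries, replicates 2 and 6, and in Control in 4 of 6. At 24 h it differed by −2.79 (log2) from Control (SE 1.26, edgeR adjusted p = 0.133) and by −2.87 from S6h (SE 1.26, edgeR adjusted p = 0.115). Without S24h replicate 2 it was called in both, at −4.33 (edgeR adjusted p = 0.0318) and −4.41 (edgeR adjusted p = 0.0278), but 3 counts were then left at 24 h, so these values are no measure of size.

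mmu-miR-127-5p ranged from 0 to 315 CPM in Control (median 69.4), from 0 to 182 CPM at 6 h (median 16.2), from 0 to 91.9 CPM at 24 h (median 0) and from 0 to 57.1 CPM at 72 h (median 0). Control replicate 5 was the highest library, and 5 of 6 Control libraries had a count against 2 of 6 at 24 and at 72 h. mmu-miR-433-3p ranged from 0 to 253 CPM in Control (median 70.7), from 0 to 128 CPM at 6 h (median 17), from 0 to 91.9 CPM at 24 h (median 0) and from 0 to 103 CPM at 72 h (median 34.4). Every group of both held a library at 0. The log2 fold changes at 24 h were −1.78 (SE 1.41, edgeR adjusted p = 0.445) for mmu-miR-127-5p and −1.89 (SE 1.43, edgeR adjusted p = 0.428) for mmu-miR-433-3p. The former was −0.98 without Control replicate 5 and −2.62 without S24h replicate 3, and the latter −1.11 without Control replicate 4 and −2.88 without S24h replicate 3, which left 6 and 5 counts at 24 h.

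Between Rian and Mirg, in the stretch that opens the miR-379 to miR-410 group known for activity-dependent expression in neurons, the summed level of the 16 members ranged from 172 to 1113 CPM in Control (median 422) and from 167 to 809 CPM at 6 h (median 468). At 24 h it ranged from 0 to 259 CPM (median 95.9) and at 72 h from 0 to 202 CPM (median 136). In each late group 5 of 6 libraries lay below every Control and every S6h library (4 of 6 at 72 h with TMM-scaled library sizes).

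mmu-miR-379-5p, the leading member of this stretch, ranged from 0 to 238 CPM in Control (median 124), from 81.0 to 361 CPM at 6 h (median 121), from 0 to 100.3 CPM at 24 h (median 13.6) and from 0 to 92.3 CPM at 72 h (median 0). It was seen in 5 Control, 6 S6h, 3 S24h and 2 S72h libraries, and all groups but S6h held libraries at 0. It differed from Control by −2.22 (log2) at 24 h (SE 1.19, edgeR adjusted p = 0.202) and −2.50 at 72 h (SE 1.23, edgeR adjusted p = 0.26). The value from S6h to S24h was −2.62 (edgeR adjusted p = 0.132), so no call was made. Without S24h replicate 3 the values at 24 h were −3.09 against Control and −3.49 against S6h, and without S72h replicate 5 that at 72 h was −3.57, fitted to 9 and 4 counts left in those groups.

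mmu-miR-543-3p ranged from 0 to 172 CPM in Control (median 96.2), from 0 to 351 CPM at 6 h (median 46.7), from 0 to 91.9 CPM at 24 h (median 0) and from 0 to 67.3 CPM at 72 h (median 8.16). S24h replicate 3 was the only S24h library with a count. Against Control the 24 h value was −2.71 on the log2 scale (SE 1.39, edgeR adjusted p = 0.185), and without that library it was −6.79 (edgeR adjusted p = 0.0257), fitted against a group at 0 and so no measure of size. From S6h to S24h it was −2.53 (edgeR adjusted p = 0.221), and −1.36 (edgeR adjusted p = 0.552) without S6h replicate 3. Without S24h replicate 3 it was −6.60 (edgeR adjusted p = 0.0194), again against a group at 0.

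mmu-miR-411-5p, next to mmu-miR-379-5p on the chromosome, had the most counts of the members that were not tested, 129 in 12 libraries. It ranged from 0 to 323 CPM in Control (median 19.4), from 0 to 97.5 CPM at 6 h (median 52.3) and from 0 to 40.8 CPM at 72 h (median 12.2), and all S24h libraries were at 0. With 3 counts per S24h library as the floor, a mean of 35.3 CPM, its mean level at 24 h was at least 2.02-fold lower than in Control and at least 1.27-fold lower than at 6 h. Each bound was lost without 1 library, since without Control replicate 5 the Control mean was 21.1 CPM and without S6h replicate 5 the S6h mean was 34.1 CPM, both under the floor. In a fit without a filter, over 667 miRNAs, its edgeR adjusted p was 0.0282 against Control and 0.0437 against S6h, and this fit was not repeated with libraries left out.

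mmu-miR-495-3p had 78 counts in 4 libraries, Control replicates 4 and 5 and S6h replicates 4 and 6, and none at 24 or 72 h. mmu-miR-299a-3p had 77 counts in 7 libraries, 66 of them in 4 Control libraries, which reached 148 CPM, and none at 24 h. Against the floor of 3 counts per S24h library, mmu-miR-299a-3p was at least 1.78-fold lower at 24 h than in Control. This bound was 1.29-fold without Control replicate 1. In the fit without a filter mmu-miR-299a-3p was not called against Control at 24 h (edgeR adjusted p = 0.0909). For mmu-miR-495-3p no bound is given, since the Control mean without replicate 5 was 26.8 CPM, under the floor. Neither was seen in all libraries of any group.

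Within Mirg the summed level of the 13 members ranged from 547 to 1735 CPM in Control (median 992), from 591 to 1323 CPM at 6 h (median 773), from 209 to 935 CPM at 24 h (median 347) and from 26.1 to 673 CPM at 72 h (median 335). Below the lowest Control library lay 4 of 6 libraries of each late group, and below the lowest S6h library 5 of 6.

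mmu-miR-382-5p was the next most abundant member, with 985 counts in 21 libraries. It ranged from 172 to 553 CPM in Control (median 363), from 271 to 513 CPM at 6 h (median 397), from 0 to 650.4 CPM at 24 h (median 144) and from 0 to 294 CPM at 72 h (median 35.6). S24h replicate 2 was the highest of all 24 libraries while S24h replicate 6 was at 0, and 5 of 6 S72h libraries lay below the lowest Control library. Against Control it differed by −0.78 (log2) at 24 h (SE 0.84, edgeR adjusted p = 0.608) and −1.77 at 72 h (SE 0.86, edgeR adjusted p = 0.254). Leaving out S24h replicate 2 made the former −1.38, and leaving out S72h replicate 1 made the latter −2.83, with no call.

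Its other arm, mmu-miR-382-3p, ranged from 10.5 to 253 CPM in Control (median 118), from 0 to 216 CPM at 6 h (median 46.9), from 0 to 487 CPM at 24 h (median 72.2) and from 0 to 205 CPM at 72 h (median 61.0). The highest library was S24h replicate 6, in which the 5p arm had no count. The 3p arm held 24.5% of the counts of the hairpin in Control, 13.0% at 6 h, 47.8% at 24 h and 33.6% at 72 h. Without S24h replicate 6 the share at 24 h was 20.3%, and without S72h replicate 1 that at 72 h was 59.7%, so no order of groups can be read from it. The arms were not tested against each other. Its log2 fold change at 24 h was −0.12 (SE 1.11, edgeR adjusted p = 0.966), and the sign turned with library totals alone (0.10) and without Control replicate 4 or 5 or S24h replicate 1, 4 or 5 (up to 0.16). It was −1.01 without S24h replicate 6. Its value from S6h to S24h was 0.71, −0.26 without S24h replicate 6 and 1.43 without S6h replicate 3.

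mmu-miR-541-5p had counts in 5 of 6 Control, 6 of 6 S6h, 0 of 6 S24h and 5 of 6 S72h libraries. It ranged from 0 to 517 CPM in Control (median 328, mean 309 ± 204, SD, n = 6), from 97.5 to 486 CPM at 6 h (median 229, mean 253 ± 131) and from 0 to 346 CPM at 72 h (median 137, mean 163 ± 130.3). All S24h libraries were at 0, where 3 counts would be 20.9 to 45.0 CPM. Control replicate 4 and S72h replicate 2 were also at 0, so S24h stood apart from every library of S6h alone, as 5.56% of all tested miRNAs did in that direction. No tested member at 24 h lay below every Control library, beside 2.38% of all tested miRNAs.

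Taking 3 counts per S24h library as the floor, mmu-miR-541-5p at 24 h was lower than in Control by at least 8.75-fold (edgeR quasi-likelihood, Benjamini-Hochberg adjusted p = 0.00027) and lower than at 6 h by at least 7.16-fold (edgeR adjusted p = 0.000137). From 24 h to 72 h it was at least 4.61-fold higher (edgeR adjusted p = 0.00251), and this call was lost in a model of those 2 groups alone (edgeR adjusted p = 0.159), where the other alternatives gave adjusted p down to 1.25e-06. Its log2 fold change at 72 h against Control was −0.86 (SE 0.86, edgeR adjusted p = 0.662). Leaving out any 1 of the 24 libraries did not end any of the 3 calls. The bounds compare group means, and the adjusted p values belong to the fitted log2 fold changes and not to the bounds. With 1 library left out, the bound against Control was as low as 7.57-fold, without Control replicate 1. The bound against S6h was as low as 5.84-fold, without S6h replicate 3, and that at 72 h as low as 3.57-fold, without S72h replicate 3. The annotated mature sequence is 25 bases long, the longest of the 43, while the authors counted reads of 20 to 24 bases, so its counts come from reads shorter than the annotated form.

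mmu-miR-409-3p ranged from 0 to 365 CPM in Control (median 144), from 38.2 to 79.4 CPM at 6 h (median 49.1), from 0 to 122 CPM at 24 h (median 0) and from 0 to 65.3 CPM at 72 h (median 0). Control held libraries at 0 as well as the 3 highest of all libraries. The log2 fold change was −2.68 at 24 h (SE 1.37, edgeR adjusted p = 0.185) and −3.19 at 72 h (SE 1.38, edgeR adjusted p = 0.193). Without S24h replicate 5 the value at 24 h was −4.13, with 4 counts left, and without S72h replicate 1 the value at 72 h was called, at −5.64 (edgeR adjusted p = 0.0486), with 1 count left at 72 h, so neither value is a measure of size. The 5p arm, mmu-miR-409-5p, had 32 counts in 4 libraries, 5 in Control replicate 5, 5 and 14 in S24h replicates 1 and 6 and 8 in S72h replicate 4.

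mmu-miR-369-3p had 70 counts in 8 libraries, with 15 in Control, 36 at 6 h, 13 at 24 h and 6 at 72 h. mmu-miR-369-5p had 1 count. mmu-miR-485-5p had 78 counts in 10 libraries and ranged from 0 to 66.7 CPM in Control, 0 to 67.3 CPM at 6 h, 0 to 122 CPM at 24 h and 0 to 69.4 CPM at 72 h. Neither showed an order of groups beyond the spread. The other members that were not tested had from 0 to 67 counts, in at most 8 libraries each. Besides those named above they were mmu-miR-431-5p opposite to Rtl1, then mmu-miR-380-3p, mmu-miR-323-3p, mmu-miR-329-3p, mmu-miR-494-3p, mmu-miR-667-3p, mmu-miR-376b-3p, mmu-miR-376a-3p, mmu-miR-300-3p and mmu-miR-381-3p between Rian and Mirg. Within Mirg they were mmu-miR-134-5p, mmu-miR-668-3p, mmu-miR-154-5p, mmu-miR-496a-3p, mmu-miR-377-3p and mmu-miR-410-3p, and mmu-miR-487b-3p and mmu-miR-376c-3p were without a position.

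**Figure D3:**
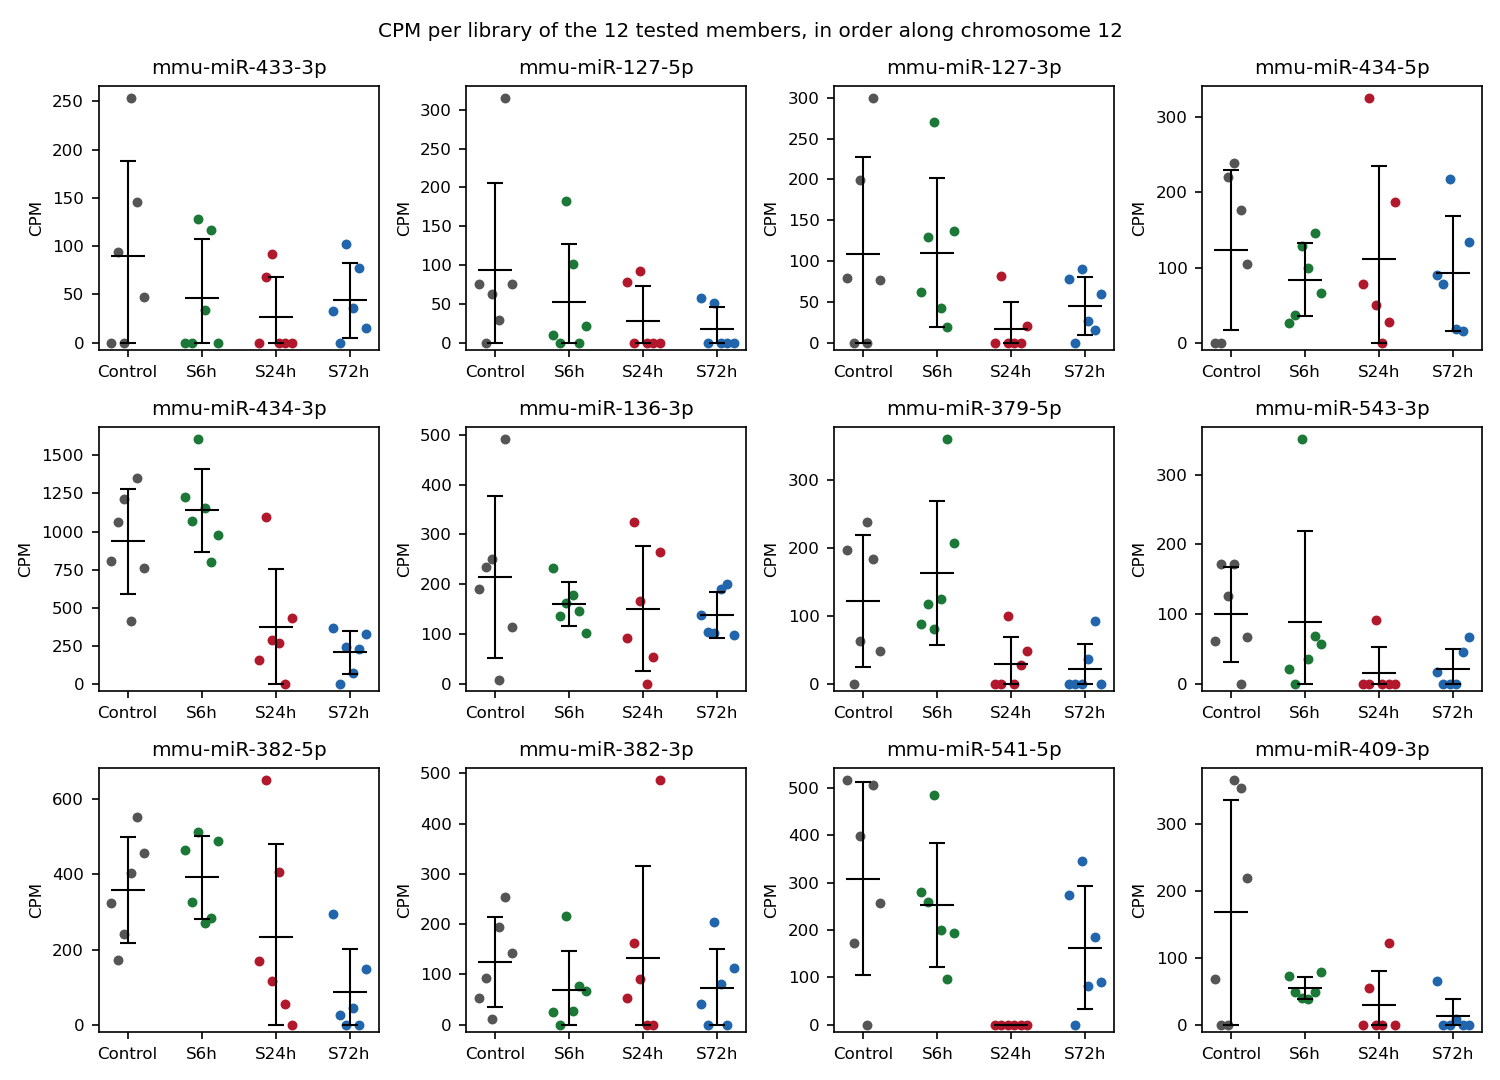
CPM (vertical axes) in each of 24 libraries for the 12 tested members, in their order along chromosome 12, with points for libraries, lines for group means and bars of 1 SD, not drawn below 0. mmu-miR-541-5p is at 0 in all 6 S24h libraries, and mmu-miR-434-3p reaches at most 363 CPM at 72 h against at least 409.7 CPM in Control.

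The seed, bases 2 to 8 of a mature miRNA, decides most of its target pairing. The 43 matched members have 43 different seeds, so no group of members shares one. The sequences of the called members are printed because the comparisons turn on them, with the other arm of the miR-434 hairpin beside its partner, and neighbors that are close in sequence. They are taken from RefSeq (GRCm38.p6, plus strand), 5′ to 3′, with the seed in capitals.
mmu-miR-541-5p: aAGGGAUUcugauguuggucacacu
mmu-miR-434-3p: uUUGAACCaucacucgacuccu
mmu-miR-434-5p: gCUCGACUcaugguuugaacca
mmu-miR-379-5p: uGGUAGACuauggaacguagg
mmu-miR-411-5p: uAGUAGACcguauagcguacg
mmu-miR-543-3p: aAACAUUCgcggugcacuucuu
mmu-miR-495-3p: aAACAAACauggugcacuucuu
mmu-miR-541-5p lies at chr12:109742422-109742446 within Mirg, and mmu-miR-434-3p at chr12:109594565-109594586 opposite to Rtl1. The pair mmu-miR-379-5p and mmu-miR-411-5p differ at 7 of 21 bases, 1 of them in the seed, and mmu-miR-543-3p and mmu-miR-495-3p at 4 of 22, 2 of them in the seed. The closest pairs were mmu-miR-376a-3p and mmu-miR-376b-3p, and mmu-miR-300-3p and mmu-miR-381-3p, with 3 differing bases each. Whether reads were assigned to the wrong miRNA of a pair was not tested.

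Further miRNAs of the region outside the 46 were sparser. Of 65 such mature miRNAs in the table, 13 had a count and 1 was tested, mmu-miR-485-3p, which ranged from 0 to 199.7 CPM in Control, 0 to 181 CPM at 6 h, 0 to 136 CPM at 24 h and 0 to 90.2 CPM at 72 h and was not called in any comparison. mmu-miR-540-3p had 43 counts and mmu-miR-376b-5p had 38. The 65 together had a mean summed level of 170.2 ± 87.0 CPM in Control, 135 ± 61.9 at 6 h, 113 ± 124 at 24 h (73.1 without S24h replicate 5) and 46.3 ± 52.6 at 72 h (SD, n = 6 each).

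Red cell miRNAs also had lower median levels in the late groups. Of 13 listed erythroid miRNAs 11 were tested and 1, mmu-miR-96-5p, had no count, and 5 were called lower at 24 h, 1 at 72 h and 3 from S6h to S24h, where 20, 4 and 35 of all 252 tested miRNAs were. Their summed level ranged from 140466 to 239185 CPM in Control (median 180375), from 101279 to 176981 CPM at 6 h (median 156855), from 56042 to 157212 CPM at 24 h (median 91124) and from 62904 to 205834 CPM at 72 h (median 91585). The most abundant, mmu-miR-486b-5p, had means of 80239 ± 22930, 56491 ± 12253, 38231 ± 23649.5 and 39809.8 ± 19212 CPM (SD, n = 6 each, Control to S72h). With the erythroid counts taken out of the totals, the summed level of the 46 members had means of 3994 ± 1733, 3496 ± 908, 1488 ± 993 and 1242 ± 603 CPM in the same order. Their part in the levels of the members was otherwise not tested.

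Markers of other tissues are given for the same libraries, as means in the order Control, S6h, S24h and S72h. Of 22 brain miRNAs 14 had a count and 8 were at 0. The brain sum had means of 11027 ± 3828, 11073 ± 2043, 12697 ± 4372 and 12549.7 ± 4145 CPM, nearly all of it mmu-miR-128-3p, while mmu-miR-124-3p had 27 counts in 4 libraries. The 5 tested brain miRNAs had a median log2 difference from Control of −2.01 at 24 h and −1.27 at 72 h. Of 12 skeletal muscle miRNAs 8 had a count, led by mmu-miR-1a-3p, and their sum was 55816 ± 20059, 153157 ± 84579, 30309 ± 10468 and 60175 ± 88521 CPM, the last being 24658 without S72h replicate 1. Liver miRNAs, led by mmu-miR-122-5p, summed to 77443 ± 78186, 12701 ± 9685, 23757 ± 17553 and 56845 ± 119033 CPM, the last being 8263 without S72h replicate 4. The platelet and leukocyte lists share mmu-miR-223-3p and mmu-miR-150-5p. Platelet miRNAs, of which 9 of 10 were in the table, led by mmu-miR-21a-5p, summed to 106103 ± 27723, 104603 ± 17373, 112558 ± 14708 and 108008 ± 40848 CPM, and leukocyte miRNAs, led by mmu-miR-181a-5p, to 17912 ± 2949, 18456 ± 3958, 20864 ± 4964 and 16734 ± 5988 CPM (SD, n = 6 in each case). From S6h to S24h edgeR called lower 1 of 5 tested brain, 3 of 6 skeletal muscle, 3 of 9 platelet and 1 of 10 leukocyte miRNAs, and higher 2 platelet and 1 leukocyte miRNAs, where 35 of all 252 were called lower and 16 higher. Against Control it called 1 platelet miRNA lower at 24 h and 1 leukocyte miRNA lower at 72 h, out of 20 and 4 lower over all. The part of these tissues in the levels of the members was not tested.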

How the data were processed

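Serum EV small RNA libraries of 24 mice were analysed. The deposited values are whole-number counts per mature miRNA of miRBase, which the authors made by trimming adapters with cutadapt, aligning to GRCm38 with Bowtie, keeping reads of 20 to 24 bases and counting with featureCounts; 22 PCR cycles were used and no collapsing of copies is described. Groups came from the sample labels. CPM was computed from library totals, which ranged from 63956 to 471801 counts. In R 4.3.3, 1 edgeR 4.0.16 quasi-likelihood model with TMM scaling was fitted to all 4 groups and 252 miRNAs, with at least 10 CPM in at least 12 libraries; DESeq2 1.42.0 was an alternative. The model was tested on simulated data. The members and lists were chosen with earlier results of these data known. Values per library are given for tested members, with both arms of a hairpin where both are members, and of the others for the 5 with the most counts; each marker list is shown by its sum and its most abundant miRNA. Alternatives concerned test, scaling, filter, groups, block and single libraries. Of 24 libraries no 2 were identical. Descriptions were computed in Python 3.11.15.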

Additional observations from a re-analysis of the deposited data

Results flagged for a closer look

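In 9 of 56 groups of 6 libraries, 1 library lay far from the others, judged by its gap to the nearest library as a share of the whole range, where chance gives about 1 in 20 groups if values are normally distributed, which counts with many zeros are not. For the summed CPM of the members these were Control replicate 5 (0.704 of the range) and S6h replicate 3 (0.680). Among single members, S24h replicate 2 stood apart for mmu-miR-127-3p (0.743), Control replicate 5 for mmu-miR-127-5p (0.758), S6h replicate 3 and S24h replicate 6 for mmu-miR-382-3p (0.639 and 0.666), S72h replicate 1 for mmu-miR-409-3p (0.862), and S6h replicate 3 and S24h replicate 3 for mmu-miR-543-3p (0.806 and 1). All of these were the highest library of their group.

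For 2 members the difference from Control was not the same at each time point, in edgeR's test of the time points against each other. From S6h to S24h 2 of the 12 tested members were called, beside 20.2% of all 252 tested miRNAs. From S24h to S72h 1 was called, beside 0.397%. These counts are too few to read as a result about the members. mmu-miR-434-3p fell from S6h to S24h (log2 fold change −1.85), a call that was lost in 8 of 24 cases when 1 library was left out. RLE scaling and library totals alone also ended this call. The mean level of mmu-miR-541-5p at 24 h was lower than at 6 h by at least 7.16-fold, and at 72 h higher than at 24 h by at least 4.61-fold. These bounds were 5.84-fold without S6h replicate 3 and 3.57-fold without S72h replicate 3. The call from S24h to S72h was lost in a model of those 2 groups alone. The S6h and S24h groups held different mice, divided at random among the time points, and whether they shared a batch is not stated. The cause was not tested.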

How the results depend on the processing

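The counts of calls were recomputed under 10 alternatives. Called members at 24 h numbered 2 without a filter, where 38 of all 667 miRNAs were called. At 72 h there was 1 with DESeq2, without a filter (5 lower and 3 higher of 667 over all) and with edgeR's own filter. From S6h to S24h there were 3 without a filter (45 of 667 over all) and 1 with RLE scaling (43 of 252) and with library totals alone (37 of 252), and from S24h to S72h there were 0 in a model of those 2 groups. Over all tested miRNAs, 2 were called at 6 h without a filter and 50 at 24 h with DESeq2. At 72 h the number was 21 with DESeq2, 17 with TMMwsp, 2 with library totals alone and with TMM without the erythroid list, 20 with edgeR's own filter and 0 in the 2 groups alone. From S24h to S72h it was 4 with DESeq2, 10 without a filter and 0 in the 2 groups alone. Without mmu-miR-434-3p the summed level of the members had means of 2294, 1831, 971 and 883 CPM from Control to S72h, and the S72h libraries, from 391 to 1347 CPM, overlapped those of Control, from 1048 CPM upward. Leaving libraries out of bounds, arm shares and marker sums was chosen after seeing the data.

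With the replicate numbers of the labels as a replicate block, 1 miRNA was called at 72 h, and no count of called members changed. The median log2 value of the members from S6h to S24h was then −1.94. At 24 h against Control the value of mmu-miR-127-5p was −3.34 and that of mmu-miR-543-3p −4.65, and mmu-miR-543-3p from S6h to S24h was at −3.22. At 72 h against Control mmu-miR-382-5p was at −2.37. Of the 12 members 7 were below 0 at 6 h, against 8. Same-numbered libraries did not deviate together (median r −0.007 over 36 pairs), so the numbers were not taken as pairs.

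With 1 library left out and the same 252 miRNAs tested, called members ranged from 1 to 3 at 24 h, from 0 to 2 at 72 h and from 1 to 3 from S6h to S24h. Called miRNAs ranged from 20 to 42 at 24 h, from 1 to 14 at 72 h, from 32 to 53 from S6h to S24h and from 1 to 5 from S24h to S72h. At 72 h there were 14 without S72h replicate 1, 1 without Control replicate 2 or 5 or S72h replicate 5, and 2 without Control replicate 1 or S72h replicate 2 or 3. There were 3 without Control replicate 4 or 6, S6h replicate 1, 2 or 5, or S24h replicate 1, 3 or 4, and 5 without S24h replicate 6. The number from S6h to S24h was 32 without S6h replicate 4 or 6 or S24h replicate 3. From S24h to S72h there were 5 without S24h replicate 2 or S72h replicate 2 or 5, 3 without S72h replicate 1, and 2 without S6h replicate 1 or 3 or S24h replicate 6.

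Recomputing the filter on the other 23 libraries was an alternative chosen after seeing the data. Called members then ranged from 1 to 3 at 24 h, from 0 to 2 at 72 h and from 1 to 3 from S6h to S24h. The number of called miRNAs reached 50 at 24 h without S24h replicate 2 and was 33 from S6h to S24h without S6h replicate 5. At 72 h it was 14 without Control replicate 1, S6h replicate 2, S24h replicate 5 or S72h replicate 3, and 15 without S6h replicate 5 or S24h replicate 6. It was 16 without S6h replicate 3, S24h replicate 2 or S72h replicate 1 or 6, 18 without S24h replicate 1, 5 without S24h replicate 4, 4 without Control replicate 4, 2 without S72h replicate 5 and 1 without Control replicate 5. From S24h to S72h it was 3 without S24h replicate 2 or S72h replicate 2, and 2 without S6h replicate 3, S24h replicate 6 or S72h replicate 5.

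Signs of single members were followed against Control at 24 and 72 h and from S6h to S24h, where 2 members turned, neither of them called. In the other comparisons only mmu-miR-541-5p from S24h to S72h was followed, and with library totals alone the number of members below 0 there went from 7 to 8. At 24 h against Control, mmu-miR-382-3p was at 0.10 on the log2 scale with library totals alone, at 0.00 with edgeR's own filter and between −1.01 and 0.16 with 1 library left out. With the filter recomputed it was positive in 17 cases, at 0.01, 0.02, 0.04, 0.09, 0.10, 0.11, 0.15, 0.18, 0.19 and 0.20. From S6h to S24h it ranged from −0.26 to 1.43 with 1 library left out, and was −0.08 with the filter recomputed without S24h replicate 6. mmu-miR-434-5p at 24 h against Control ranged from −1.03 to 0.01, and with the filter recomputed was 0.17 without Control replicate 4, 0.01 without S24h replicate 3 and 0.04 without S24h replicate 4. Its value from S6h to S24h ranged from −0.53 to 0.40, and with the filter recomputed was −0.34 without S24h replicate 2 and 0.00 without S6h replicate 1. The cause was not tested. A count of 0 still allows a true level of up to 3 counts per library.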
